A study of Homo sapiens with 6 samples.

Results

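The 9 genes described here are regulators of the epithelial state and the epithelial surface protein EPCAM. They were taken by gene symbol, whatever their level or difference, from a list drawn up with earlier results of these data known, and each was found in 1 of the 24294 loci of the deposited table, none in a merged locus. The members are KLF5, ESRP1, ESRP2, GRHL1, GRHL2, OVOL1, ELF3, LLGL2 and EPCAM. RNA came from MCF12A, an immortalized line of human breast epithelium that the labels describe as a cancer line. One group of 3 samples (miR-424) carried a stable construct over-expressing the microRNA miR-424, and the other group of 3 (EV) carried the empty vector. All 6 samples were grown for 48 hours with no other treatment, and the labels do not say whether they came from separately derived lines, so the p-values cover the spread among these 6 samples alone, and that spread may be technical.

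Epithelial identity is held by a small network of transcription factors, RNA-binding proteins and polarity proteins. Grainyhead-like factors (GRHL1, GRHL2), OVOL1 and the ETS factor ELF3 activate junction and barrier genes or hold back mesenchymal regulators, KLF5 is a zinc finger factor of proliferating basal epithelium, and ESRP1 and ESRP2 select epithelial exons during splicing. LLGL2 is a scaffold of the basolateral polarity complex, and EPCAM is a membrane glycoprotein of epithelial cell contacts. In an epithelial-to-mesenchymal transition these genes are commonly silenced by repressors of the SNAI and ZEB families, which bind E-box sequences.

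The sequence of miR-424-5p is shown because a microRNA recognizes its targets mainly through its seed, bases 2 to 8, given in capitals. The mature sequences are from RefSeq (GRCh38.p14). The miR-424-5p sequence lies on chromosome X, 134546680 to 134546701, minus strand. It shares its seed with miR-15a-5p and miR-16-5p, whereas miR-503-5p, from the same host transcript, has another seed.
miR-424-5p: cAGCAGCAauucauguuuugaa
miR-16-5p: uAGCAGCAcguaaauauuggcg
miR-15a-5p: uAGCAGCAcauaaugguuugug
miR-503-5p: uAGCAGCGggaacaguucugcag

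The complement of the seed, TGCTGCT, did not occur in the longest annotated 3' UTR (GENCODE 29) of any of the 9 members. Among 9893 tested loci with an annotated 3' UTR, 2498 (25.3%) held it. The shorter match to bases 2 to 7 with an A opposite base 1, GCTGCTA, occurred 1 time, in the 3' UTR of ESRP1 at 1272 nt after the stop codon, and either match occurred in 28.9% of the tested loci. The members' 3' UTRs were between 329 nt (LLGL2) and 3023 nt (GRHL2) long, and the median of the tested loci was 1402 nt. These counts describe letters in annotated transcripts and do not measure binding.

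The host transcript of the construct was read first. The locus MGC16121/MIR424 was at 0.989, 1.27 and 1.23 FPKM (a fragment density scaled to transcript length and library size) in EV replicates 1, 2 and 3 and at 106.6, 106.3 and 223.6 FPKM in miR-424 replicates 1, 2 and 3. From the steps that single fragments leave in low FPKM values, depth was estimated at about 40400000 to 57900000 fragments per library. It was lowest in miR-424 replicates 1 and 2, at 0.837 and 0.748 of the depth of EV replicate 1. Over the tested loci the median deviation from the EV mean (log2) was -0.11 in miR-424 replicate 3, lower over loci as a whole, and -0.02 in each of the other two miR-424 libraries. Epithelial markers were uneven in both groups. Of 13 markers, 10 had a mean of 1 FPKM or more, KRT8 and KRT18 the highest of them, whereas E-cadherin (CDH1, 0.0228 FPKM in EV cells), KRT19 (0.119 FPKM) and TP63 (0.133 FPKM) were near 0. The 13 summed to between 391.5 and 408.1 FPKM in EV libraries and to between 353.1 and 382.9 FPKM in miR-424 libraries. The basal keratin gene KRT14 rose, and KRT5, the integrin gene ITGB4 and CLDN7 fell (limma); EPCAM itself is one of the 13. The rise was lost on leaving out any EV library or miR-424 replicate 1, and the count of falls dropped from 3 to 1 without EV replicate 1 or 3 and to 2 without EV replicate 2. The median log2 difference of the 10 tested epithelial markers was -0.05, as over all tested loci. Of the 13, 4 were lower without overlap and 1 higher, where 21.5% and 5.28% of loci above 0 were. Marker calls are to be read against 6.32% of all tested loci called lower and 1.24% higher. Of 10 fibroblast markers 4 were tested, 3 had an unadjusted p under 0.05, all higher, and 1, COL1A1, rose (limma). That call was lost on leaving out any EV library or miR-424 replicate 1 or 2, with a constant prior and with the replicate block. The median log2 difference of the 4 was 0.18, and 5 of the 10 (COL1A1, FAP, ACTA2, PDGFRB and LUM) were higher without overlap and 0 lower, where 5.28% of loci above 0 were higher without overlap. The 10 had sums of 181.4 to 191.2 FPKM in EV libraries and 192.4 to 216.1 FPKM in miR-424 libraries. COL1A2 (0.0148 FPKM in EV cells), PDGFRA (0.0226 FPKM) and THY1 (0.0657 FPKM) were near 0. Leukocyte markers summed to 55.97 to 58.94 and 54.05 to 60.15 FPKM, nearly all of it CD68, with the B cell marker MS4A1 at 0, and endothelial markers summed to 0.358 to 0.389 and 0.304 to 0.374 FPKM. The part of other cell types in the results below was not tested.

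The members ranged from well expressed to no signal. KLF5 had a higher mean over the 6 libraries than 80.2% of the 24294 loci, ESRP2 than 63.8% and EPCAM than 59.6%. LLGL2 lay above 47.5% of loci, GRHL1 and ESRP1 both above 43.5%, and ELF3 above 35.3%. FPKM is scaled to transcript length, so levels can be compared between genes. In both groups the order was KLF5, ESRP2, EPCAM, LLGL2, GRHL1, ESRP1 and ELF3, followed by OVOL1 and GRHL2, which were both at 0 in EV cells. The ranges of neighbours did not overlap except for GRHL1 with ESRP1 and OVOL1 with GRHL2. The 3 members whose mean reached 1 FPKM (KLF5, ESRP2, EPCAM) were compared between the groups by limma on log2(FPKM + 1) within a fit of all 11574 such loci, and the other 6 were under that minimum. The nearest member under it was LLGL2 (mean over all libraries 0.446 FPKM) and the nearest above it EPCAM (2.72 FPKM).

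**Figure D1:**
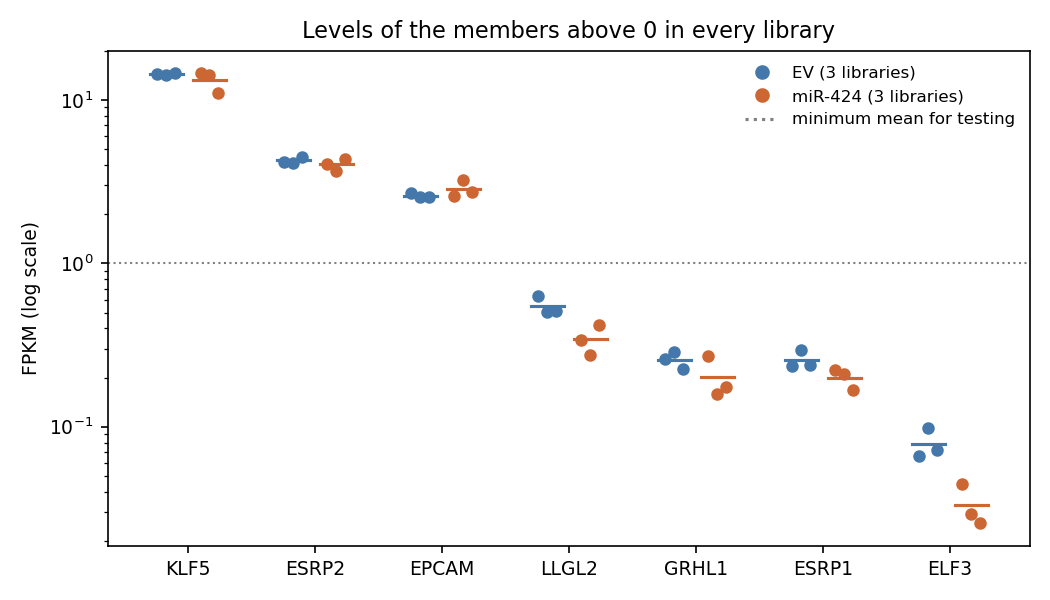
FPKM (log axis) of the 7 members that were above 0 in every library, with 1 point per library, EV in blue and miR-424 in orange, and a horizontal bar at each group mean. KLF5, ESRP2 and EPCAM lie above the dotted line at 1 FPKM, the minimum mean for testing, and LLGL2, GRHL1, ESRP1 and ELF3 lie under it; OVOL1 and GRHL2 are not drawn.

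None of the 3 tested members passed the test. With Benjamini-Hochberg adjustment over all tested loci and a threshold of 0.05, 0 of 3 members were called by limma, and 0 of 3 had an unadjusted p under 0.05. Over all tested loci 7.56% were called, 6.32% lower and 1.24% higher in miR-424 cells. The share of all loci with an unadjusted p under 0.05 was not counted. Member and list counts at that threshold therefore have no share to be read against. In a bulk sample, fewer cells with a transcript and less of it per cell cannot be told apart.

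KLF5 (chromosome 13, 73633141 to 73651676, hg19), the transcription factor, was the most abundant member. Its level was 14.4, 14.3 and 14.6 FPKM in EV replicates 1, 2 and 3 and 14.6, 14.1 and 10.99 FPKM in miR-424 replicates 1, 2 and 3. The groups overlapped, and miR-424 replicate 3 alone lay apart from the other 5 libraries. The group means were 14.4 ± 0.14 and 13.2 ± 1.95 FPKM (SD, n = 3 each). The log2 difference, miR-424 minus EV, was -0.13 ± 0.10 (SE; 95% interval -0.36 to 0.11; limma, Benjamini-Hochberg adjusted p = 0.507). When miR-424 replicate 3 was left out the log2 difference was -0.01 (limma, adjusted p = 0.843). The 3 of 8304 loci from a mean of 5 FPKM upwards whose log2 profiles over the 6 libraries lay closest to that of KLF5 were SLC4A1AP, ADD3 and TGOLN2. Their mean absolute differences from it were 0.00833, 0.0107 and 0.0129, against a median of 0.0887 over those loci. All of them had their lowest level in miR-424 replicate 3, at 8.80, 6.47 and 64.0 FPKM, which follows from their choice by likeness to KLF5.

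ESRP2, a splicing regulator, was at 4.19, 4.14 and 4.50 FPKM in EV replicates 1, 2 and 3 and at 4.05, 3.69 and 4.35 FPKM in miR-424 replicates 1, 2 and 3. The ranges overlapped, and the log2 difference was -0.07 ± 0.06 (SE; 95% interval -0.22 to 0.08; limma, Benjamini-Hochberg adjusted p = 0.565). The table lists ESRP2 with the span of chromosome 16, 68119268 to 68270136 (hg19), the same span as for the neighbouring gene NFATC3, which was at 10.7 to 12.4 FPKM over the 6 libraries. In GENCODE 29 the genes lie on opposite strands and share 149 of the 4006 exonic bases of ESRP2. No source used here gives whether the authors counted by strand, so the value of ESRP2 may hold reads of NFATC3. Its paralog ESRP1 (chromosome 8, 95653363 to 95719694, hg19) was far lower. ESRP1 was at 0.234, 0.293 and 0.240 FPKM in EV replicates 1, 2 and 3 and at 0.221, 0.211 and 0.167 FPKM in miR-424 replicates 1, 2 and 3. Every miR-424 library was under every EV library, by a margin of 0.221 against 0.234 FPKM at the nearest. The ratio of ESRP2 to ESRP1 was 16.9 ± 2.44 in EV and 20.6 ± 4.71 in miR-424 cells (SD, n = 3 each).

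EPCAM (chromosome 2, 47596286 to 47614167, hg19) was at 2.70, 2.54 and 2.54 FPKM in EV replicates 1, 2 and 3 and at 2.58, 3.23 and 2.72 FPKM in miR-424 replicates 1, 2 and 3. The highest value was that of miR-424 replicate 2, and replicate 1 lay among the EV libraries. The log2 difference was 0.09 ± 0.07 (SE; 95% interval -0.07 to 0.26; limma, Benjamini-Hochberg adjusted p = 0.491).

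LLGL2, the polarity scaffold (chromosome 17, 73521782 to 73571290, hg19), had the clearest separation among members above 0.1 FPKM. Its level was 0.628, 0.503 and 0.512 FPKM in EV replicates 1, 2 and 3 and 0.340, 0.274 and 0.419 FPKM in miR-424 replicates 1, 2 and 3. The groups did not overlap, and the mean was 1.59-fold lower in miR-424 cells (0.548 ± 0.07 against 0.344 ± 0.07 FPKM, SD, n = 3 each). These values stand for about 73 to 95 fragments per EV library and 31 to 68 per miR-424 library, not scaled to depth. In a fit of the 14893 loci whose mean reached 0.1 FPKM, on log2(FPKM + 0.1), the log2 difference was -0.55 ± 0.15 (SE; 95% interval -0.91 to -0.19), which did not pass (limma, unadjusted p = 0.00878, Benjamini-Hochberg adjusted p = 0.0857). Leaving out miR-424 replicate 3 gave -0.67 (limma, adjusted p = 0.0163), and leaving out any other library gave adjusted p between 0.168 and 0.273 (limma). LLGL1, the other human homolog of this scaffold, was far more abundant, at 17.4 ± 0.11 and 18.4 ± 1.28 FPKM. The ratio of LLGL1 to LLGL2 was 27.6, 34.5 and 34.2 in EV replicates 1, 2 and 3 and 53.3, 63.0 and 47.2 in miR-424 replicates 1, 2 and 3.

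GRHL1 (chromosome 2, 10091791 to 10142412, hg19) was the only member of its pair with signal. It was at 0.259, 0.286 and 0.226 FPKM in EV replicates 1, 2 and 3 and at 0.272, 0.159 and 0.175 FPKM in miR-424 replicates 1, 2 and 3, about 23 to 58 fragments per library. The groups overlapped through miR-424 replicate 1. In the fit from 0.1 FPKM upwards GRHL1 had a log2 difference of -0.26 ± 0.17 and ESRP1 one of -0.25 ± 0.13 (SE; adjusted p = 0.433 and 0.330 by limma). In this fit 0 of 6 members passed, where 5.48% of all loci were called lower in miR-424 cells. LLGL2 alone had an unadjusted p under 0.05 (limma), a looser threshold than that of the 5.48%. GRHL2 (chromosome 8, 102504667 to 102681952, hg19), the factor most tied to keeping mammary epithelium epithelial, was listed at 0 in all 6 libraries. At the estimated depths and its length of 5232 nt, 3 fragments would correspond to 0.00991 to 0.0142 FPKM, the level up to which a count of 0 leaves it undetected; this limit covers counting error only. GRHL3, named after its values were seen, was at 0.331 ± 0.0333 and 0.246 ± 0.0346 FPKM (SD, n = 3), of the order of GRHL1. OVOL1 (chromosome 11, 65554504 to 65564690, hg19), a zinc finger repressor of mesenchymal regulators, was listed at 0 in 5 libraries and at 0.0150 FPKM in miR-424 replicate 3, about 3 fragments. No fold is given, since both groups lie at or under the level of 3 fragments. Its paralog OVOL2, also named after its values were seen, was at 0 in 3 of 6 libraries and at most at 0.0213 FPKM.

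ELF3 (chromosome 1, 201979689 to 201986315, hg19) had the largest ratio between group means, at a level of few fragments. It was at 0.0666, 0.0981 and 0.0715 FPKM in EV replicates 1, 2 and 3 and at 0.0444, 0.0292 and 0.0257 FPKM in miR-424 replicates 1, 2 and 3. The groups did not overlap, and the mean was 2.38-fold lower in miR-424 cells. The values correspond to about 11 to 18 fragments per EV library and 4 to 6 per miR-424 library, so that counting error is large. These fragment numbers are not scaled to depth. In a fit of all 19342 loci above 0 in at least 1 library, on log2(FPKM + 1), ELF3 had a difference of -0.06 ± 0.01 (SE), a scale that understates the change of so low a gene, and was not called (adjusted p = 0.0788 by limma). In this fit 0 of 8 members passed, where 3.87% of all loci were called lower. An unadjusted p under 0.05 by limma was found for 3 of them (LLGL2, ESRP1 and ELF3), a looser threshold than that of the 3.87%. The related ETS factor EHF was at 0.547 ± 0.028 and 0.491 ± 0.0194 FPKM and ELF5 at 0 in 5 of 6 libraries, both named after their values were seen.

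Of the 9 members, 6 had a lower mean and 2 a higher mean in miR-424 than in EV cells, OVOL1 being one of the latter through a single library. The share of all loci with a lower mean was not counted, and the median log2 difference of all tested loci was itself -0.05. The groups did not overlap for LLGL2, ESRP1 and ELF3, with miR-424 lower in each. The same lack of overlap was found for 21.5% of the 19342 loci above 0 when lower in miR-424 cells and for 5.28% when higher, and the 3 are to be read against those shares as 3 of the 8 members above 0. After median-of-ratios scaling between libraries the same 3 members did not overlap, against 14.4% of loci lower in miR-424 cells.

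**Figure D2:**
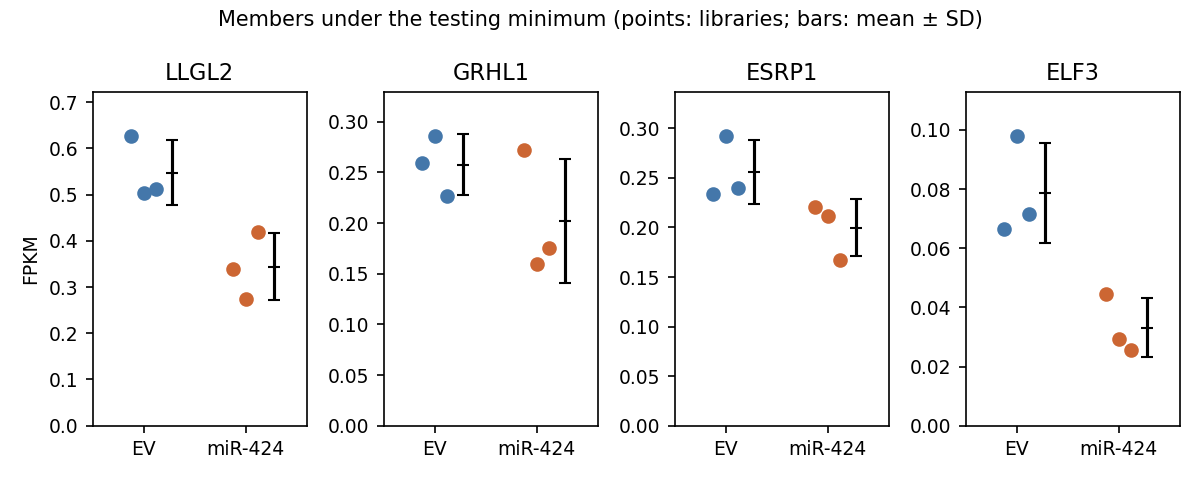
FPKM in each library (points) and mean ± SD (black bars, n = 3) for the 4 members between 0 and 1 FPKM, EV on the left and miR-424 on the right of each panel, each with its own axis from 0. The groups do not overlap for LLGL2, ESRP1 and ELF3, and overlap for GRHL1 through miR-424 replicate 1 at 0.272 FPKM.

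The promoter of ELF3 is shown because it held the only match to the E-box CACCTG among the member windows searched. That of KLF5 is shown as the member with the highest level. RefSeq promoter windows matched 3 of the 9 members (ELF3, GRHL1 and KLF5), and the 250 bases before the start were searched for CACCTG on both strands. The ELF3 window (chr1:202010337-202010586, GRCh38.p14, plus strand) held 1 match, in capitals, beginning 120 bases before the start. The KLF5 window (chr13:73058755-73059004, GRCh38.p14, plus strand) held none, nor did a window at a second KLF5 start or that of GRHL1. GRHL1, like ELF3, lay under the minimum of 1 FPKM. Of 35116 such windows 17.5% held a match, and a match is a description of letters, not evidence of binding.
ELF3: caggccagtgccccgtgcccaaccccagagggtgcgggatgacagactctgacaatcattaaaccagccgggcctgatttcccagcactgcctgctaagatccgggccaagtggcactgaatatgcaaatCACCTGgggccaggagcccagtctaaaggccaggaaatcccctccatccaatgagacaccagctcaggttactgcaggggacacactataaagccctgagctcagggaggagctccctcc
KLF5: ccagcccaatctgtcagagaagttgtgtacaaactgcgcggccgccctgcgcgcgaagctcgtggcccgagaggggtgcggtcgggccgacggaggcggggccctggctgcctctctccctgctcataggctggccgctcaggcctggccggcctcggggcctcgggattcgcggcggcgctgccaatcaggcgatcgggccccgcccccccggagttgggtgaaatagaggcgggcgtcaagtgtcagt

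Of 11 repressors of the epithelial programme, 2 were under the minimum mean and 9 were tested. Of these 9, 0 were called and 1 had an unadjusted p under 0.05 (limma). Whether the repressors act on the members was not tested. TWIST1 was at 60.3 ± 2.22 and 46.2 ± 11.5 FPKM and SNAI2 at 53.4 ± 1.24 and 51.5 ± 5.24 FPKM in EV and miR-424 cells (SD, n = 3). ZEB1 (9.31 ± 0.18 and 9.66 ± 0.82 FPKM) and ZEB2 (5.95 ± 0.12 and 6.12 ± 0.27 FPKM), named after their values were seen, were above EPCAM in every library. Without miR-424 replicate 3, 22.2% of all tested loci were called lower and 14.9% higher, and calls made without it are to be read against those shares. Of the 9 repressors 2 then rose and 4 fell, TWIST1 among the falls (log2 difference -0.19; limma, adjusted p = 0.00466) and ZEB1 among the rises (0.11; adjusted p = 0.0377).

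Of 27 genes known as targets or companions of the GRHL, OVOL and ELF3 programme, all above 0 in at least 1 library, 6 reached a mean of 1 FPKM and 21 did not, CDH1 among the latter. Of the 6 tested, 3 fell and 0 rose (limma, Benjamini-Hochberg adjusted p under the threshold), and their median log2 difference was -0.30 beside -0.05 for all tested loci. Over all tested loci 6.32% were called lower. The falls were the desmosome-linked periplakin gene PPL (2.34 ± 0.16 to 1.43 ± 0.07 FPKM), the tight junction gene CLDN7 (2.03 ± 0.02 to 1.36 ± 0.11 FPKM) and the desmosomal plakophilin gene PKP3 (6.23 ± 0.20 to 5.01 ± 0.07 FPKM; SD, n = 3). CLDN7, which binds EPCAM in the membrane, fell while EPCAM did not pass the test; the difference between the responses of CLDN7 and EPCAM was not tested. The most abundant gene of the list, CLDN4, named after its values were seen, was at 21.5, 21.1 and 21.2 FPKM in EV replicates 1, 2 and 3 and at 16.3, 14.6 and 19.4 FPKM in miR-424 replicates 1, 2 and 3. The groups did not overlap, but CLDN4 was not called (adjusted p = 0.0853 by limma), except when miR-424 replicate 3 was left out (0.000649). PPL passed in all 14 alternatives run for it. Leaving out EV replicate 1, 2 or 3 ended the call of CLDN7 (limma, adjusted p = 0.0643, 0.0703 and 0.0703) and of PKP3 (0.0954, 0.0881 and 0.0885), and leaving out miR-424 replicate 1 that of PKP3 (0.0656). PKP3 was also not called with the replicate block (0.0661). Of all 27 genes, 14 were lower without overlap and 1 was higher, against the 21.5% and 5.28% of loci given above. These genes were not recounted after median-of-ratios scaling, which brought the share of loci lower to 14.4%.

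Other transcription factors of mammary epithelium gave 2 falls and 0 rises among 8 tested (limma), 1 of which is described here. Over all tested loci 6.32% were called lower. TFAP2A, an AP-2 factor of ectodermal and mammary epithelium, fell from 10.5 ± 0.35 to 6.53 ± 0.87 FPKM (log2 difference -0.62 ± 0.09, SE; limma, Benjamini-Hochberg adjusted p = 0.0106). Its values were 10.1, 10.7 and 10.8 FPKM in EV replicates 1, 2 and 3 and 6.61, 7.35 and 5.62 FPKM in miR-424 replicates 1, 2 and 3. Leaving out EV replicate 1, 2 or 3 ended the call of TFAP2A (limma, adjusted p = 0.0595, 0.0688 and 0.0699).

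The KLF family without KLF5 had 10 tested members, of which 0 were called and 3 had an unadjusted p under 0.05, all lower (limma). KLF6 (49.98 ± 0.17 and 46.4 ± 3.93 FPKM) and KLF10 (27.1 ± 0.81 and 25.6 ± 3.13 FPKM) exceeded KLF5 in level. KLF4 and KLF9, named after their values were seen, had log2 differences of -0.28 and -0.40 (adjusted p = 0.0606 and 0.0748 by limma), and both passed without miR-424 replicate 3 (-0.22 and -0.27; adjusted p = 0.0165 and 0.00171). Of 8 ubiquitin ligases and co-factors of KLF5, all tested, 0 were called and 1 had an unadjusted p under 0.05 (limma). The co-activator genes YAP1 (35.3 ± 0.99 and 31.3 ± 4.51 FPKM) and WWTR1 (25.7 ± 0.09 and 27.3 ± 3.90 FPKM, SD, n = 3) were the most abundant of them. YAP1, like KLF5, was lowest in miR-424 replicate 3 (26.1 FPKM). WWTR1 passed without that library (log2 difference 0.19; limma, adjusted p = 0.00128).

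Close relatives of the members (GRHL3, OVOL2, ETS factors and LLGL1 among them) gave 0 calls among 5 tested, with 2 unadjusted p under 0.05 (limma), and the most abundant was ELF1, at 19.8 ± 0.52 and 18.9 ± 2.10 FPKM. Around LLGL2, 24 apical-basal polarity genes were examined and 14 tested. DLG5, a scaffold of cell contacts, fell from 50.5 ± 0.89 to 41.5 ± 1.56 FPKM (log2 difference -0.28 ± 0.04, SE; limma, Benjamini-Hochberg adjusted p = 0.0132), and 13 were not called. The share called lower was 7.14%, near the 6.32% of all tested loci. DLG5 did not pass without EV replicate 1, 2 or 3 (adjusted p = 0.0872, 0.0811 and 0.0845) and with the replicate block (0.0501). Of the 24 polarity genes, 11 were lower without overlap and 0 higher, against 21.5% and 5.28% of loci. Scaling by median of ratios brought the share of loci lower to 14.4%, and the polarity genes were not recounted after it. Without miR-424 replicate 3 the calls were 5 lower and 1 higher among the 14 tested, where 22.2% and 14.9% of all tested loci were called.

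Splicing factors beside the ESRPs gave 1 fall and 0 rises among 15 tested. The share called lower was 6.67%, near the 6.32% of all tested loci. RBM47, an RNA-binding protein of epithelial splicing, fell from 3.33 ± 0.10 to 2.21 ± 0.25 FPKM (SD, n = 3; log2 difference -0.43 ± 0.07, SE; limma, Benjamini-Hochberg adjusted p = 0.0137). It was at 3.42, 3.22 and 3.35 FPKM in EV replicates 1, 2 and 3 and at 2.24, 2.45 and 1.94 FPKM in miR-424 replicates 1, 2 and 3. The call ended without EV replicate 1, 2 or 3 (adjusted p = 0.0849, 0.0711 and 0.0806) and without miR-424 replicate 1 (0.0524). Of 14 tested genes with exons that ESRP proteins are known to splice, 0 were called, 0 had an unadjusted p under 0.05 (limma), and the median log2 difference was 0.00. The small GTPase gene RAC1 (268.5 ± 1.65 and 265.9 ± 5.58 FPKM) and the hyaluronan receptor gene CD44 (123.5 ± 3.17 and 123.2 ± 6.04 FPKM) were the most abundant. These values sum the isoforms of a gene and do not show which exons were used. Without miR-424 replicate 3 there were 4 rises and 1 fall among the 15 splicing factors and likewise among the 14 genes, against 14.9% of all tested loci called higher and 22.2% lower.

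Proteases that cut EPCAM and its known partners gave 2 falls and 0 rises among 14 tested, CLDN7 and CD9. The share called lower was 14.3%, beside 6.32% of all tested loci. CD9, a tetraspanin found in complexes with EPCAM, fell from 42.8, 42.7 and 46.1 FPKM in EV replicates 1, 2 and 3 to 28.5, 29.3 and 29.7 FPKM in miR-424 replicates 1, 2 and 3. The log2 difference was -0.57 ± 0.04 (SE; limma, Benjamini-Hochberg adjusted p = 0.00211), and CD9 passed in all 15 alternatives run. Over the 10 lists together, 99 loci were tested, of which 8 fell and 0 rose, with a median log2 difference of -0.06. Over all tested loci 6.32% were called lower and the median was -0.05, so neither the count nor the median of the lists stood far from those of all loci. Leaving out EV replicate 1, 2 or 3 gave 2 falls each, leaving out miR-424 replicate 1 gave 5, and leaving out miR-424 replicate 3 gave 26 falls and 17 rises, beside 22.2% and 14.9% of all tested loci. Among genes above 0, lack of overlap with miR-424 lower was counted on unscaled values, beside 21.5% of loci. It held for 14 of 27 programme, 11 of 24 polarity and 6 of 15 KLF genes. Counts were 3 of 8 KLF5 co-factors, 5 of 16 EPCAM partners, 4 of 10 relatives and 4 of 13 mammary factors. Repressors had 4 of 11, splicing factors 3 of 20 and ESRP-spliced genes 2 of 17. In the higher direction (5.28% of loci) each list had 0 or 1 gene.

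**Figure D3:**
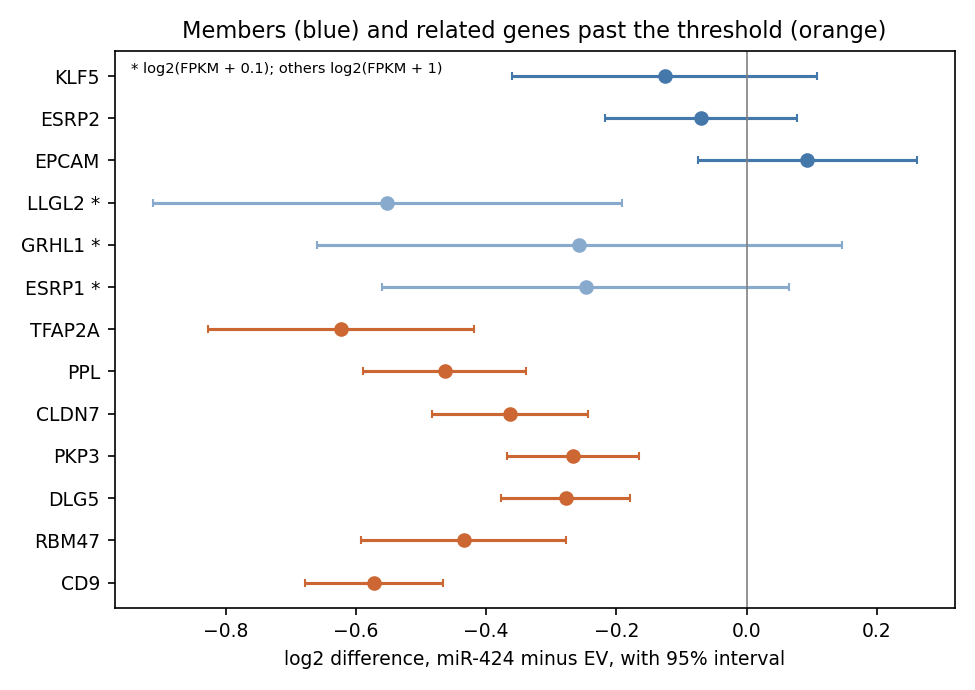
Log2 difference, miR-424 minus EV, with its 95% interval from limma, for 6 members (blue) and for 7 of the 8 related genes past the threshold (orange). The intervals of KLF5, ESRP2 and EPCAM include 0; LLGL2, GRHL1 and ESRP1, marked with an asterisk, come from the fit on log2(FPKM + 0.1), in which none of them passed after adjustment.

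**Figure D4:**
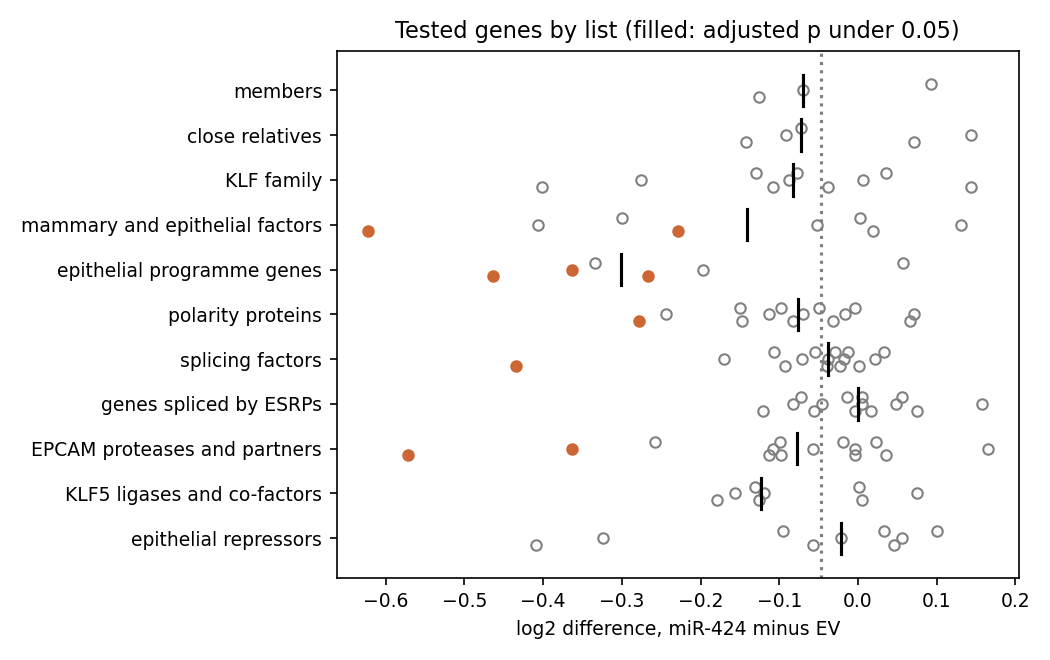
Log2 difference, miR-424 minus EV (horizontal axis), of each tested gene by list, filled orange where the adjusted p was under 0.05, with a black bar at the list's median and a dotted line at the median of all tested loci (-0.05). Every filled point lies left of 0, and the lists of members, close relatives, KLF factors, ESRP-spliced genes, KLF5 co-factors and repressors hold no filled point.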

How the data were processed

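The authors deposited FPKM values for 24294 loci in 6 libraries. The submitters' processing notes name TopHat 1.4.1, Cufflinks 1.3.0 and Cuffdiff, and hg19 and GRCh37 as builds, with no role or order. Annotation, strand use and scaling: not given in the sources used here. Members and lists were chosen with earlier results of these data known. Where a symbol was repeated, the row with the highest mean was used. Loci whose mean reached 1 FPKM were tested on log2(FPKM + 1) with limma 3.58.1 (R 4.3.3; trended prior, two-sided, Benjamini-Hochberg adjustment over all tested loci, threshold 0.05), after the script was tested on simulated data. Lower members were also read from a fit without a minimum and from one with a minimum of 0.1 FPKM and a pseudocount of 0.1. An exact permutation of 3 against 3 samples cannot go below 0.1 and was not used.

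The worth of 1 fragment was estimated from the first peak of FPKM times length (RefSeq transcripts matched to GENCODE 29) over loci with 1 transcript of over 3000 nt. In each library 68 to 88 loci lay near 1 fragment, 18 to 37 between 1 and 2 and 49 to 76 near 2, so fragment numbers are approximate. Groups came from the sample titles. Named genes are all members, in each list up to 4 called genes (smallest adjusted p first) or otherwise the 2 with the highest mean, and the 3 loci most like KLF5; a few genes of the lists are counted but not reported here by name. Alternatives changed the pseudocount, the minimum, the scaling, the prior and the replicate block, and left out each library.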

Additional observations from a re-analysis of the deposited data

How the results depend on the processing

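The member count (0 called) was the same in all 15 alternatives to the main fit. The log2 difference of KLF5 ranged from -0.20 to -0.01 over fits that left out 1 library, that of ESRP2 from -0.12 to -0.02 and that of EPCAM from 0.02 to 0.14. ESRP2 changed sign with quantile normalization (0.00083; limma, adjusted p = 0.996). In fits of low loci, chosen in part after seeing the data, leaving out 1 library gave -0.67 to -0.43 for LLGL2, which passed only without miR-424 replicate 3, -0.42 to -0.16 for GRHL1, -0.30 to -0.17 for ESRP1 and -0.07 to -0.05 for ELF3. The share of all loci called in those fits with a library left out was not counted.

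Over all loci, 144 rose and 731 fell. There were 308 rises with median-of-ratios scaling (495 falls), 319 rises and 447 falls with quantile normalization, 79 and 270 with the replicate block, and 468 falls with a minimum mean of 5 FPKM. Leaving out 1 library gave 31 to 1728 rises and 77 to 2574 falls. In the related lists there was 1 rise with quantile normalization, 4 falls with a minimum of 5 FPKM, 5 falls with the replicate block, and 12 falls without a minimum or with a minimum of 0.1 FPKM. Leaving out 1 library gave 0 to 17 rises and 2 to 26 falls. The cause of these shifts was not tested.

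Whether replicate numbers pair the samples was not tested. Deviations of same-numbered samples correlated at 0.051, 0.152 and 0.127. Those of samples with different numbers correlated at -0.194 to 0.061, the highest being EV replicate 1 with miR-424 replicate 2. The replicate block left all 3 tested members uncalled.

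Signs also changed for genes that were not called. Over fits that left out 1 library the log2 differences ranged from -0.121 to 0.019 (ELF1), -0.142 to 0.014 (KLF10), -0.0226 to 0.0038 (RAC1), -0.0261 to 0.037 (CD44), -0.103 to 0.028 (SNAI2) and -0.00082 to 0.108 (ZEB1), each highest without miR-424 replicate 3. Median-of-ratios scaling gave 0.043 (RAC1) and 0.053 (CD44), quantile normalization 0.0013 (RAC1), and leaving out EV replicate 2 or 3 gave 0.00057 and 0.012 (CD44). Depth limits ELF3, OVOL1 and GRHL2, where few or no fragments were counted.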
